A study of Sus scrofa with 12 samples.

Results

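The 10 genes described here encode the structural core of the intercalated disc, the specialised border across which heart muscle cells are joined end to end. They were taken by symbol as a panel of junction genes, by a rule that uses no measured value, although earlier results of these data were known when the panel was proposed: GJA1, TJP1, DSP, PKP2, JUP, DSG2, DSC2, CDH2, CTNNA3 and NRAP. All 10 were found among the 35682 gene identifiers in the count files, and all 10 were among the 13844 genes with enough reads to be tested.

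At the disc, gap junctions built from connexins pass current and small molecules between cells, while desmosomes tie the membranes to the desmin filaments and fascia adherens junctions tie them to the actin of the last sarcomere. These kinds of contact share proteins and lie side by side in the heart of large mammals, in what is often called the area composita. Loss or displacement of connexin 43 from the disc is a well known feature of the tissue bordering a myocardial infarct, and inherited defects in desmosomal genes cause arrhythmogenic cardiomyopathy.

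Bulk RNA-seq was made from hearts of 6 female Yorkshire pigs aged 10 to 12 weeks in which the left anterior descending artery had been closed with a balloon for 60 min and then reopened. From day 9 all animals received daily prednisolone (20 mg), tacrolimus (0.75 mg per kg body weight) and mycophenolate mofetil (500 mg), and on day 14 received either vascular organoids made from human endothelial progenitor and smooth muscle cells or the fibrin glue carrier alone. Hearts were taken 4 weeks later, and each animal gave 1 library of the border zone, next to the infarct, and 1 of the remote zone, from the posterior wall. The labels used here do not say which animals received organoids, so each zone (n = 6) mixes treated and control animals and every difference below is between zones, not between treatments. All hearts were injured and immunosuppressed, no uninjured heart is among the libraries, and human reads, if any, were not separated from pig reads.

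Border zone libraries held 15130210 to 30526110 gene-assigned counts, remote zone libraries 20091415 to 31618680. Of 14 cardiomyocyte markers, 11 had an identifier and all 11 were abundant, their summed level in CPM (counts scaled to library size by TMM) lying between 11412 and 74687 for border zone and between 60854 and 108144 for remote zone libraries. Border zone libraries of 2 animals stood apart: that of animal 1022 had a mean cardiomyocyte marker level of 9.60 log2 CPM, where the next lowest border zone library had 11.55, and that of animal 3622 had the smallest total and counts on 28024 genes, where the next had 20148. The remote zone libraries of animals 1322 and 3622 had the highest share of mitochondrial counts, at 21.4% and 33.5%. The main results are given below with and without animals 1022 and 3622.

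Compared per kilobase of exon, which allows levels of different genes to be set side by side, GJA1 was the most abundant of the 10 genes, with a remote zone median of 145 CPM per kb, and it ranked above NRAP in 10 of 12 libraries and above each other gene in all 12. NRAP exceeded GJA1 in the border zone of animals 1322 (159.7 against 155 CPM per kb) and 3622 (106 against 93.9 CPM per kb). NRAP had a remote zone median of 107 CPM per kb and CDH2 one of 111 CPM per kb, but within libraries NRAP was the higher of the pair in 11 of 12. DSP followed at 72.4 CPM per kb, then PKP2 at 57.3 and JUP at 38.9 CPM per kb. JUP was not clearly below either, since DSP exceeded it in 9 and PKP2 in 8 of 12 libraries. DSC2 (23.3 CPM per kb), TJP1 (14.5), DSG2 (7.21) and CTNNA3 (5.76) were the least abundant, each above the next in at least 11 of 12 libraries. Lengths were exon unions from RefSeq, in which CTNNA3 spans 17.282 kb, so that its value depends on how much of that model was transcribed.

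No difference between border and remote zone was detected for any of the 10 genes at the level of this design. In the quasi-likelihood test of edgeR, with p adjusted over all tested genes by Benjamini-Hochberg, 0 of 10 passed 0.05, where 2.07% of all tested genes passed (287 of 13844). Of all tested genes, 2.06% were called higher in the border zone (285) and 0.0144% lower (2), beside 0 of the 10 in either direction. At an unadjusted p of 0.05 the count was also 0 of 10, against 24.7% of all tested genes. DESeq2 called 0 of 10 as well, where it called 10.3% of all genes it tested (1724 of 16688), and with the animal as a block the count was 0 of 10 against 0.296% of all genes. The log2 fold change (border against remote) was positive for 3 genes and negative for 7 (7 positive with library totals in place of TMM, 2 with DESeq2), with a median of -0.12 beside 0.04 for all tested genes. The half-width of the 95% intervals, which are not adjusted for the number of genes, ran from 0.31 for JUP to 0.79 for PKP2 on the log2 scale, with a median of 0.60, and a call after adjustment needs a larger difference than these. In tissue libraries of this kind, fewer cells of a type and less RNA per cell cannot be told apart.

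GJA1 (Ensembl gene ENSSSCG00000004241, RefSeq position on Sscrofa11.1 chr1:40988818-41002129, minus strand) encodes connexin 43, the main gap junction channel of the working ventricle. Its level ranged from 264 to 658 CPM in the border zone (median 461) and from 334 to 625 CPM in the remote zone (median 447). The zones overlapped almost completely, and the border zone held both the lowest and the highest library. The log2 fold change was -0.08 (SE 0.25, 95% interval -0.61 to 0.46, adjusted p = 0.876, edgeR). Within animals, the border zone was lower in 4 of 6, and the differences ran from -0.73 in animal 1022 to 0.26 in animal 1322. TJP1 (ENSSSCG00000004854, chr1:144930387-145195857, minus strand) encodes ZO-1, the scaffold that binds the tail of connexin 43 at the edge of the gap junction plaque. Its level ranged from 67.5 to 139 CPM in the border zone (median 107) and from 48.6 to 132 CPM in the remote zone (median 115), and the zones overlapped. The log2 fold change of TJP1 was 0.13 (SE 0.26, 95% interval -0.43 to 0.68, adjusted p = 0.799, edgeR).

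Among the desmosomal genes, DSP (ENSSSCG00000001025, chr7:4862649-4915626, plus strand) encodes desmoplakin, which anchors the desmosome to desmin. DSP ranged from 308 to 747 CPM in the border zone (median 574) and from 278 to 857 CPM in the remote zone (median 703). The lowest and the highest library were both of the remote zone. The log2 fold change was -0.18 (SE 0.32, 95% interval -0.86 to 0.51, adjusted p = 0.767, edgeR). PKP2 (ENSSSCG00000000528, chr5:41424687-41509590, plus strand) encodes plakophilin-2, the armadillo protein that links the desmosomal cadherins to desmoplakin. PKP2 ranged from 71.8 to 283 CPM in the border zone (median 239.6) and from 91.5 to 317 CPM in the remote zone (median 279). It had the widest spread of the 10 genes, with an SD of 0.74 on the log2 scale over the 12 libraries, and its log2 fold change was -0.19 (SE 0.37, 95% interval -0.98 to 0.60, adjusted p = 0.788, edgeR).

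JUP (ENSSSCG00000017428, chr12:20902395-20931208, plus strand) encodes plakoglobin, which serves both desmosomes and adherens junctions. JUP ranged from 120.0 to 150.4 CPM in the border zone (median 132) and from 96.5 to 139 CPM in the remote zone (median 125). It was the steadiest of the 10 genes, with an SD of 0.18 on the log2 scale, and its zones overlapped. The log2 fold change was 0.13 (SE 0.14, 95% interval -0.18 to 0.43, adjusted p = 0.614, edgeR). DSG2 and DSC2 encode desmoglein-2 and desmocollin-2, the desmosomal cadherins of the heart. DSG2 (ENSSSCG00000022739, chr6:115400223-115453763, plus strand) ranged from 16.2 to 40.2 CPM in the border zone (median 33.7) and from 17.6 to 42.7 CPM in the remote zone (median 37.1), with a log2 fold change of -0.16 (95% interval -0.71 to 0.40). DSC2 (ENSSSCG00000024800, chr6:114982259-115021332, minus strand) ranged from 34.6 to 131 CPM in the border zone (median 102) and from 65.7 to 148 CPM in the remote zone (median 124), with a log2 fold change of -0.26 (95% interval -0.91 to 0.38). In both cadherins the zones overlapped, and the lowest library was a border zone library.

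CDH2 (ENSSSCG00000003722, chr6:112396713-112629073, minus strand) encodes N-cadherin, the adhesive cadherin of the fascia adherens. CDH2 ranged from 193 to 503 CPM in the border zone (median 455) and from 273 to 592 CPM in the remote zone (median 540.1). The log2 fold change was -0.26 (SE 0.28, 95% interval -0.85 to 0.34, adjusted p = 0.597, edgeR), and the lowest library was of the border zone. CTNNA3 (ENSSSCG00000036480, chr14:69195231-70974543, minus strand) encodes alpha-T-catenin, an actin-binding partner of the cadherin complex that also binds plakophilin-2. CTNNA3 ranged from 40.7 to 122 CPM in the border zone (median 96.9) and from 37.6 to 113.5 CPM in the remote zone (median 99.5), and its log2 fold change was 0.0028 (95% interval -0.68 to 0.69). NRAP (ENSSSCG00000010640, chr14:123928562-124018462, minus strand) encodes the nebulin-related anchoring protein, found where myofibrils end at the disc. NRAP ranged from 404 to 1091 CPM in the border zone (median 746) and from 435 to 1093 CPM in the remote zone (median 728), the zones covering nearly the same range, and its log2 fold change was -0.06 (95% interval -0.67 to 0.55). RefSeq exons of HABP2 on the opposite strand cover 5.43% of the exon length of NRAP, and an antisense transcript covers 2.86% of that of CDH2. The libraries did not keep strand, so reads in these stretches cannot be assigned.

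**Figure D1:**
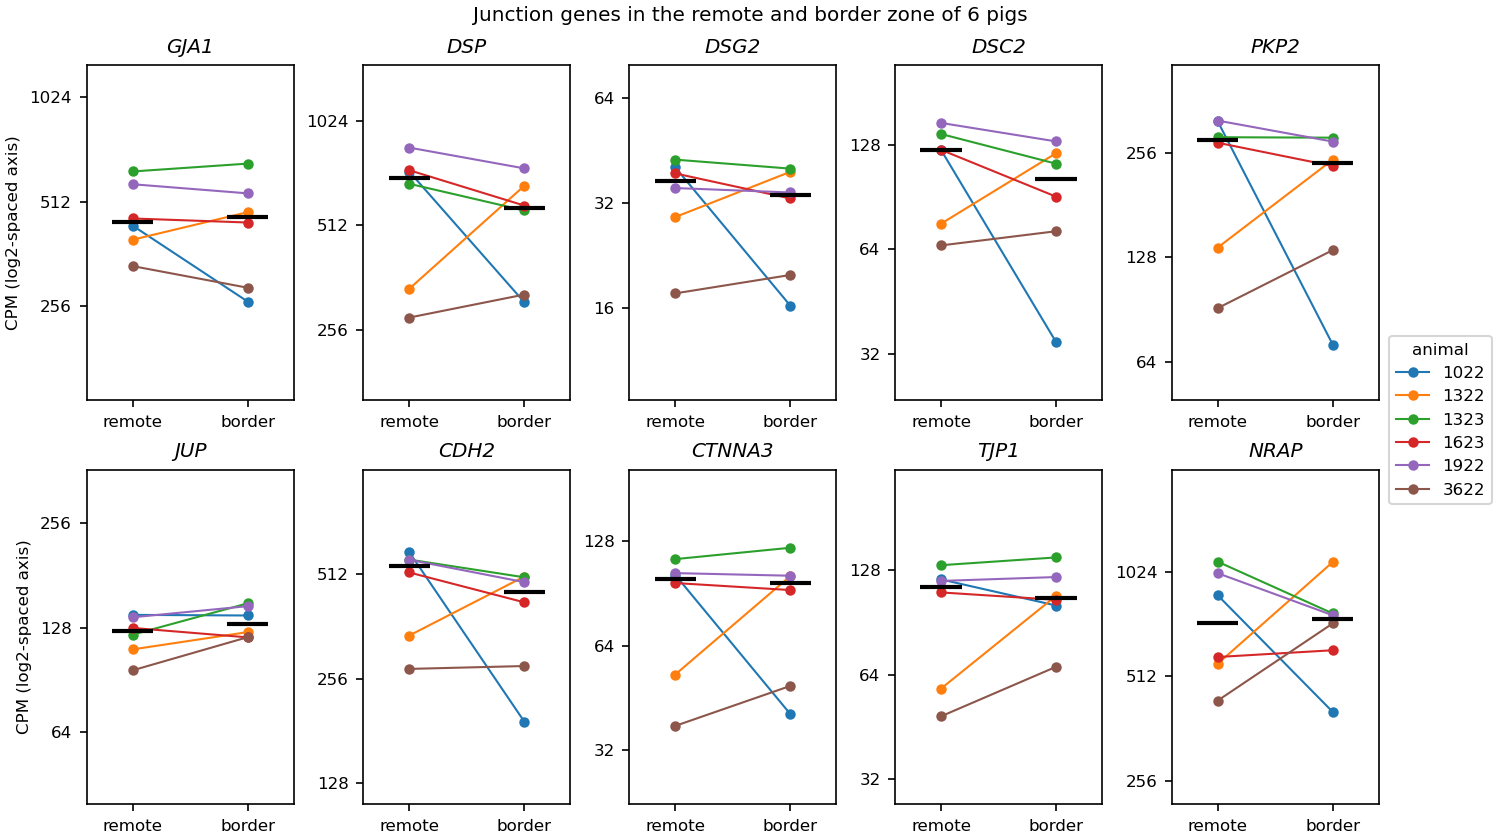
Level of each junction gene (CPM, log2-spaced axis) in the remote and border zone, with 1 line per animal (n = 6) and black bars at the zone medians. The zones overlap for all 10 genes, and the line of animal 1022 runs down to the border zone in most panels while that of animal 1322 runs up.

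**Figure D2:**
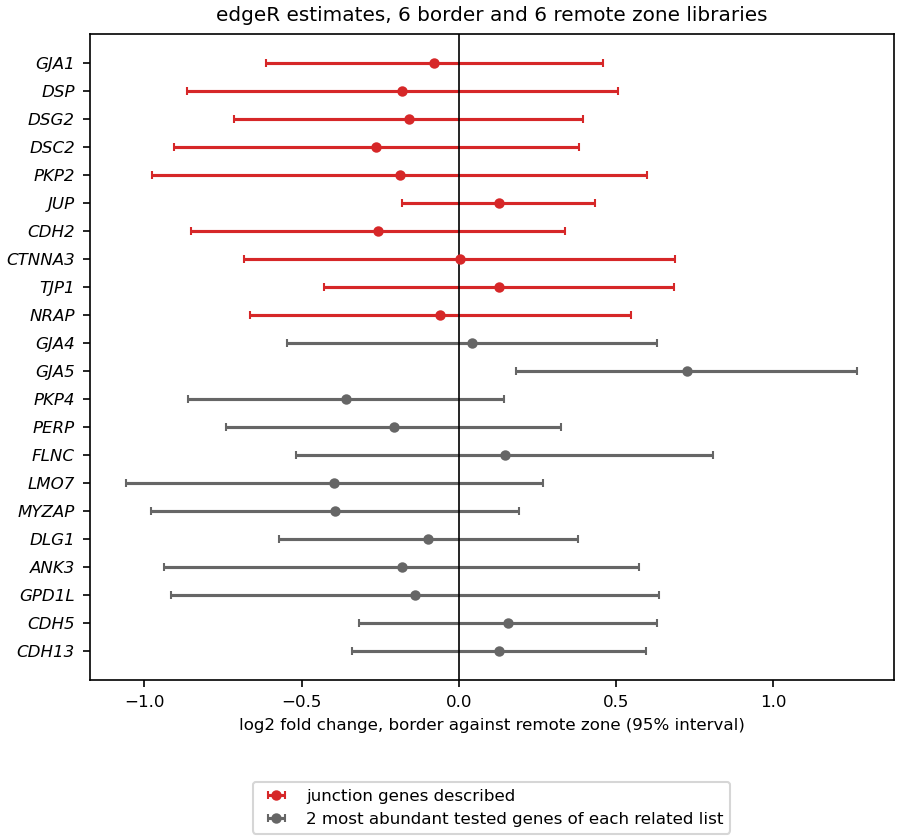
Estimated log2 fold change of border against remote zone with 95% intervals (edgeR, 6 libraries a zone) for the 10 junction genes and for the 2 most abundant tested genes of each related list. The intervals of all 10 junction genes include 0.

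The direction of the zone difference depended on the animal and was largely shared by the 10 genes. In animal 1022 the border zone was lower for 10 of 10 genes, with a median difference of -1.28 on the log2 CPM scale, from -2.13 for PKP2 to -0.01 for JUP. In animal 1322 it was higher for 10 of 10 genes, with a median of 0.76, from 0.17 for JUP to 0.98 for DSP. Animal 3622 had 9 of 10 genes higher (median 0.27), GJA1 being the exception. The library names of this animal run in the opposite order to those of the other 5, the labels were used as given, and an exchange of its libraries would turn these signs. Its matrix markers summed to 6915 CPM in the library labelled border zone and 3003 CPM in that labelled remote zone, the direction seen in the other animals. In the other 3 animals the differences were small: 4 of 10 genes were higher in animal 1323 (median -0.04), 1 of 10 in animal 1623 (median -0.16) and 2 of 10 in animal 1922 (median -0.13). A gene lower in animal 1022 and higher in animal 1322 was found in 10 of 10 junction genes and in 28.1% of all tested genes. Genes lower by more than 1 log2 unit in animal 1022 were 7 of 10 here and 19.1% of all tested genes, the exceptions being GJA1, TJP1 and JUP.

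**Figure D3:**
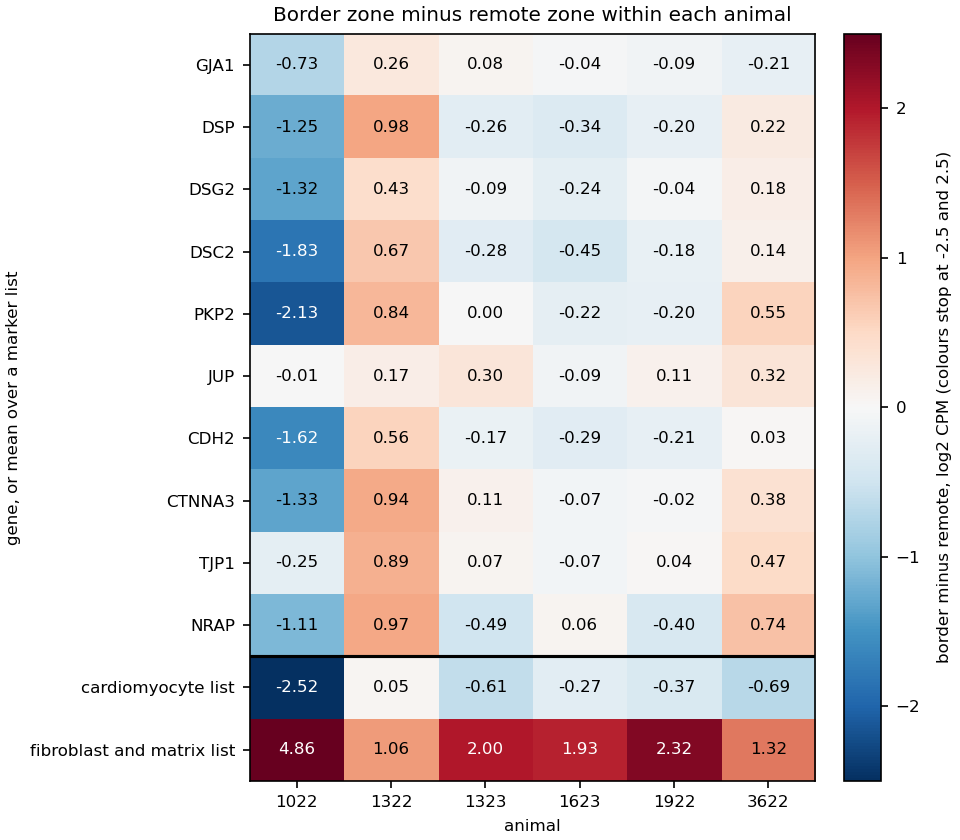
Border zone minus remote zone (log2 CPM) for each junction gene and, under the line, for the means of the cardiomyocyte and the fibroblast and matrix markers, in 6 animals. The junction genes are lower throughout animal 1022 and higher throughout animal 1322, while the matrix markers are higher in all 6.

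Markers of cell types were read in the same libraries. In animal 1022 the mean of the 11 cardiomyocyte markers was lower in the border zone by a difference of -2.52 log2 units and that of the 13 tested fibroblast and matrix markers was 4.86 higher. Over all animals, the summed matrix markers ranged from 3614 to 74085 CPM in the border zone and from 1245 to 3003 CPM in the remote zone, without overlap, with the border zone the higher one in each of the 6 animals. In the edgeR test, 12 of the 13 matrix markers rose in the border zone. They were 1 of 13 with the animal as a block, 11 without animal 1022 and 9 without both 1022 and 3622. Without animal 3622 alone 0 were called, and all 13 had an unadjusted p below 0.05. Of the 11 cardiomyocyte markers 0 passed, 3 had an unadjusted p below 0.05, and all 11 estimates were negative (median -0.55). Without animal 1022 their median was -0.31, with 2 of 11 positive. DESeq2 called 1 of 11 lower, TNNI3, where it called 10.3% of all genes it tested. The replicate block without animal 1022 called TNNI3 too, and TNNI3 is named after its values were seen. Without animal 1022, the log2 fold change was positive for 8 of the 10 junction genes, and without both 1022 and 3622 for 6 of 10, with 0 of 10 called in each case, where 1.18% and 0.57% of all tested genes were called. The part of cell composition in the junction gene values was not tested.

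Relative to the mean of the cardiomyocyte markers in the same animal, junction genes tended to be higher in the border zone. The border minus remote difference of the gene exceeded that of the markers in at least 5 of 6 animals for 10 of 10 genes, where 74.4% of all tested genes did so. It did so in 6 of 6 animals for GJA1, DSG2, PKP2, JUP, CTNNA3 and TJP1, and 34.6% of all tested genes did so. Medians of this relative difference lay between 0.39 for GJA1 and 0.80 for CTNNA3 on the log2 scale. The marker mean itself was lower in the border zone of 5 of 6 animals, so most genes lie above it. Without animals 1022 and 3622, 6 of 10 genes exceeded the markers in all 4 animals (35% of all tested genes), with medians of 0.22 to 0.55.

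The lower levels in the remote zone of 2 animals did not go with a lower mean of the cardiomyocyte markers. The remote zone libraries of animals 1322 and 3622 were the 2 lowest remote zone libraries for 10 of 10 junction genes, a pattern held by 26.6% of all tested genes. Summed over the 10 genes, they had 2094 and 1677 CPM, and the other remote zone libraries had 3065 to 3867 CPM. Their cardiomyocyte marker means were 12.16 and 12.29 log2 CPM, at or above the 11.98 to 12.16 of the other 4. Single markers need not follow the mean. In the remote zone RYR2 ranged from 387 to 1146 CPM and TNNI3 from 9522 to 20455 CPM. The remote zone libraries of 1322 and 3622 also had the highest mitochondrial shares, 21.4% and 33.5% against 13.6% to 14.7% in the other 4. Their normalisation factors were the lowest, 0.814 and 0.671. Related lists differed in these 2 libraries. The other adherens junction and actin anchoring genes summed to 2744 and 2587 CPM there, against 3690 to 5678 CPM in the other 4 remote zone libraries, and the membrane genes of the disc to 844 and 716 CPM against 1194 to 1346 CPM. The other desmosome genes were also lowest there, at 188 and 172 CPM against 195 to 249 CPM. The other connexins were highest there, at 50.6 and 51.7 CPM against 22.4 to 39.1 CPM, while the scaffold and tight junction genes (389 and 329 CPM against 327 to 402 CPM) lay within the range of the other 4. The cadherins of other cell types were at 489 and 381 CPM against 453 to 500.2 CPM. The part of mitochondrial content, RNA quality or treatment in these values was not tested. In the border zone, animals 1022 and 3622 were the 2 lowest libraries for 8 of 10 genes (not JUP or NRAP), a pattern held by 15% of all tested genes.

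**Figure D4:**
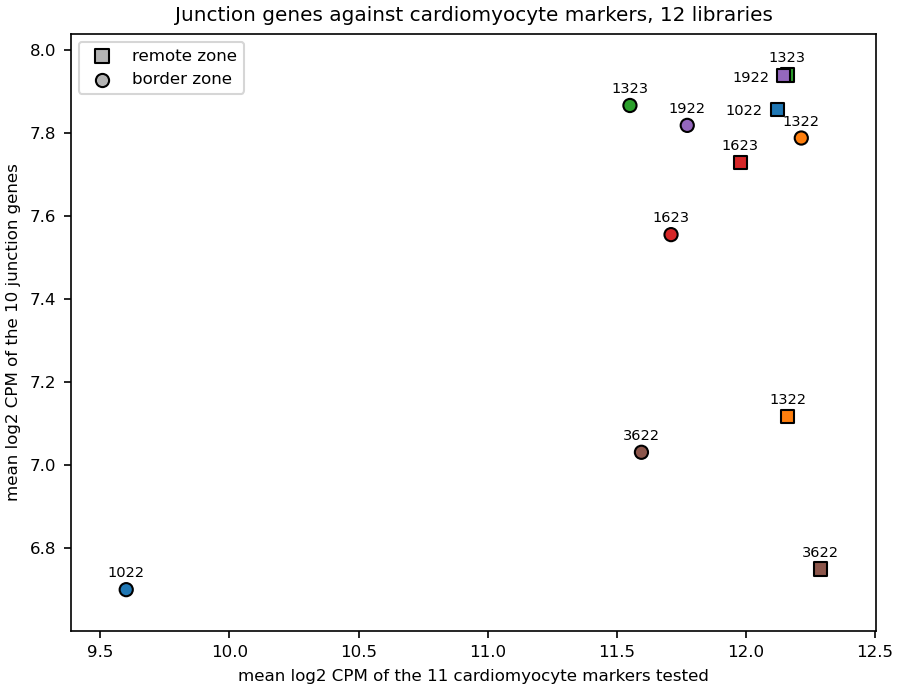
Mean log2 CPM of the 10 junction genes against that of the 11 cardiomyocyte markers in each library (squares, remote zone; circles, border zone; colours and numbers, animals). Border 1022 is low on both axes, while remote 1322 and 3622 are low for the junction genes and not for the cardiomyocyte marker mean.

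The 10 genes varied together across libraries, JUP least of all. Over the 45 pairs, the Pearson correlation of log2 CPM across the 12 libraries had a median of 0.82, from 0.30 for DSC2 and JUP to 0.98 for PKP2 and CDH2, and 24 of 45 pairs exceeded 0.8. The median was 0.91 within the 6 remote zone libraries and 0.80 within the 6 border zone libraries. Without animal 1022 it was 0.88 over 10 libraries, and without 1022 and 3622 it was 0.73 over 8. JUP had a median correlation of 0.43 with the other 9 genes. The points share animals, library scaling and the few low libraries named above, so these values describe the libraries and are given without a test.

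Among all tested genes, the profiles most like that of GJA1 over the 12 libraries were those of MBD5 (Pearson r = 0.98), ISOC1 (0.94) and CCDC85A (0.94). Most like DSP were ANK2 (0.99), which encodes ankyrin-B, ACTL6A (0.99) and PGM5 (0.98). Most like CDH2 were JPH1 (0.98), which encodes the junctophilin that holds T-tubules to the sarcoplasmic reticulum, LNPK (0.98) and IDH3A (0.98). None of these 9 genes was called between the zones, with log2 fold changes of -0.39 for JPH1 to -0.01 for MBD5.

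Ratios of partner genes cancel the scaling of a library. Of 8 ratios computed, CDH2 to CTNNA3 was the one with the same direction in every animal, being lower in the border zone of 6 of 6, with within-animal log2 differences from -0.38 to -0.19 and a median of -0.28. DSC2 to DSG2 was lower in 5 of 6 animals (median -0.17), the exception being animal 1322. PKP2 to JUP was lower in 4 of 6 (median -0.22), from -2.13 in animal 1022 to 0.67 in animal 1322. GJA1 to TJP1 was lower in 4 of 6 (median -0.30), and animals 1323 and 1623 were near 0. In the opposite direction, GJA1 to CDH2 (median 0.19) and NRAP to CDH2 (median 0.38) were each higher in 4 of 6 animals. DSP to JUP (median -0.28) and CDH2 to JUP (median -0.30) were each lower in 5 of 6. Without animals 1022 and 3622, CDH2 to CTNNA3 was lower in 4 of 4 (median -0.25), while GJA1 to TJP1 (median -0.06) and NRAP to CDH2 (median 0.08) were split evenly. The levels of all 8 ratios overlapped between the zones, and no ratio was tested.

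**Figure D5:**
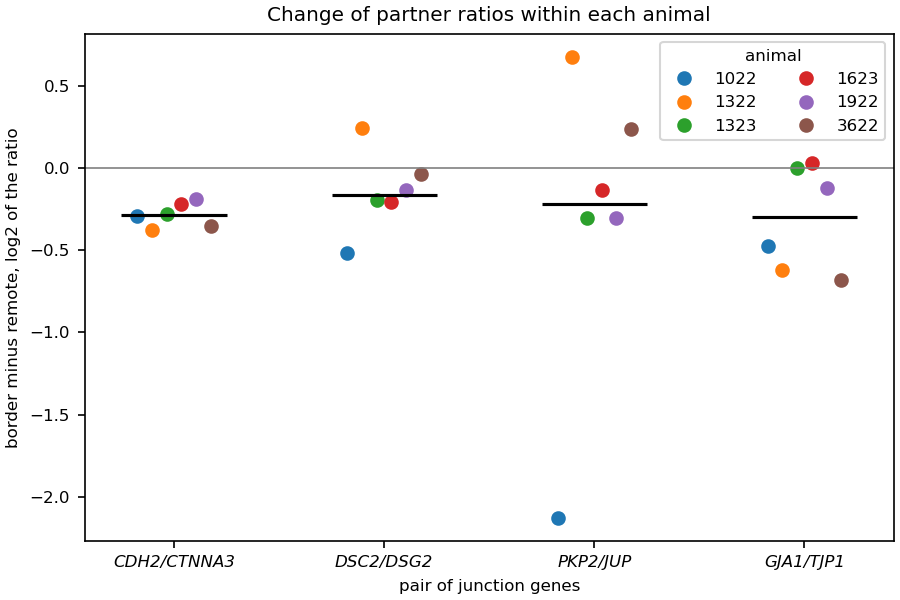
Border minus remote difference of the log2 ratio of 4 pairs of junction genes, 1 point per animal (n = 6) with a bar at the median. All 6 animals lie below 0 for CDH2/CTNNA3, and PKP2/JUP spreads from -2.13 to 0.67.

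Other genes of the same junctions also gave 0 calls in the edgeR test as reported, where 2.07% of all tested genes were called. Scaling by library totals called GJA5 and GJC1 among the connexins and CDH3 and CDH11 among the cadherins, beside 1551 of 13844 genes. DESeq2 called CDH11, where it called 10.3% of all genes it tested. The replicate block without animal 1022 called XIRP2, an actin anchoring gene, and its count over all genes is given below. Of these, GJC1, CDH3, CDH11 and XIRP2 are named after their values were seen. Of 8 other connexins, 5 were tested and all 5 had positive estimates, with a median log2 fold change of 0.72. Without animal 1022, 4 of 5 were positive (median 0.41), and with DESeq2 4 of 5 were (median 0.67). GJA5, which encodes connexin 40 of the atria, conduction system and arterial endothelium, ranged from 13.3 to 33.6 CPM in the border zone and from 8.79 to 20.0 CPM in the remote zone, with an estimate of 0.72 (SE 0.25, adjusted p = 0.116, edgeR), and one of 1.06 (adjusted p = 0.0327) with library totals. Without animal 1022 the estimate was 0.49 (adjusted p = 0.322, edgeR). GJA4, the connexin 37 of arterial endothelium, had an estimate of 0.04. GJA5 had an unadjusted p below 0.05, as did GJC1 (0.77). Of 9 other desmosome genes, 2 were tested, PERP (-0.21) and PKP4 (-0.36), and the other 7, mostly of stratified epithelia, had too few reads. Of 15 tested adherens junction and actin anchoring genes, 12 had positive estimates (median 0.15), among them filamin C, FLNC, at 0.15, while LMO7 was at -0.40.

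Of 8 tested genes of the disc scaffold and tight junctions, 3 had positive estimates (median -0.10), and 2 had an unadjusted p below 0.05. The most abundant were MYZAP, which encodes myozap, at -0.39 and DLG1 at -0.10. Of 9 tested membrane genes of the disc, 2 had positive estimates (median -0.18) and 1 had an unadjusted p below 0.05. Without animal 1022, 5 of 9 were positive (median 0.04), and with library totals 5 of 9 were (median 0.0066). ANK3, the ankyrin-G gene, was at -0.18 and GPD1L, which encodes a regulator of the cardiac sodium channel, at -0.14. Of 6 tested cadherins of other cell types, 5 had positive estimates (median 0.70) and 3 had an unadjusted p below 0.05. The most abundant were CDH13, T-cadherin, at 0.13 and CDH5, VE-cadherin of endothelium, at 0.16.

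Markers of further cell types are given for the same libraries. Of the 9 tested endothelial markers, 7 had positive estimates, 0 were called and the median log2 fold change was 0.16. Without animal 1022, 3 of 9 were positive (median -0.0153), and with library totals 9 of 9 were (median 0.50). Smooth muscle and pericyte markers had a median of 1.54, with 0 of 9 called and 8 at an unadjusted p below 0.05, where 24.7% of all tested genes were. With the animal as a block 3 of 9 were, and without animal 1022 the median was 0.80. Macrophage markers had a median of 1.55, with 0 of 8 called and 8 at an unadjusted p below 0.05, against 5 of 8 and a median of 0.99 with the block, and a median of 0.62 without animal 1022. The border zone library of animal 1022 held 3142 CPM of the former and 1228 CPM of the latter, where the other border zone libraries held at most 989 and 283 CPM. DESeq2 called 5 of 9 and 4 of 8, and library totals 8 of 9 and 6 of 8. Over all genes tested, DESeq2 called 10.3% and library totals 1551 of 13844. Medians were 0.62 for 4 lymphocyte markers, 1.08 for 5 adipocyte markers, 0.94 for 5 Schwann cell markers and 0.46 for 3 mesothelial and epithelial markers, with 0 called in each by edgeR as reported. Without animal 1022 these medians were 0.45, 1.12, 0.56 and 0.54, in the same order. DESeq2 and library totals each called 2 adipocyte markers, and they called 1 and 2 Schwann cell markers. The 5 adipocyte markers ran from -0.72 to 5.37, and with the animal as a block 1 of them was called in edgeR, ADIPOQ, the adiponectin gene, named after its values were seen (adjusted p = 0.0476, against 0.0540 without the block).

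The genes lie on 6 chromosomes of the pig genome (Sscrofa11.1, RefSeq annotation), with CDH2, DSC2 and DSG2 all on chromosome 6. GJA1 was chosen as the most abundant per kilobase of exon, PKP2 as the most variable and JUP as the steadiest. CDH2 and CTNNA3 were chosen as the pair whose ratio differed in all animals. The 250 bases upstream of the annotated start are shown for these 5 genes. They were read 5′ to 3′ on the gene's strand, from chr1:41002130-41002379 (minus strand) for GJA1, chr5:41424437-41424686 (plus strand) for PKP2, chr12:20902145-20902394 (plus strand) for JUP, chr6:112629074-112629323 (minus strand) for CDH2 and chr14:70974544-70974793 (minus strand) for CTNNA3. Capitals mark matches, on either strand, to any of the motifs searched.
GJA1: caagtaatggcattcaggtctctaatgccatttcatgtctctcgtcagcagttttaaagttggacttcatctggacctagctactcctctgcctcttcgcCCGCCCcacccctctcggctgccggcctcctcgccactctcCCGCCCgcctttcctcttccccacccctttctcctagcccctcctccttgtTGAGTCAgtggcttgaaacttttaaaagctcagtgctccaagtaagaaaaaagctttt
PKP2: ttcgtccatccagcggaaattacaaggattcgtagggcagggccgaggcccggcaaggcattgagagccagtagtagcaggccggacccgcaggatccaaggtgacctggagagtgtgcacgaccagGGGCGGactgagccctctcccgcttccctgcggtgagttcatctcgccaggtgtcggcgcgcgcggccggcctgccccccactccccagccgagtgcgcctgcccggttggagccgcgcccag
JUP: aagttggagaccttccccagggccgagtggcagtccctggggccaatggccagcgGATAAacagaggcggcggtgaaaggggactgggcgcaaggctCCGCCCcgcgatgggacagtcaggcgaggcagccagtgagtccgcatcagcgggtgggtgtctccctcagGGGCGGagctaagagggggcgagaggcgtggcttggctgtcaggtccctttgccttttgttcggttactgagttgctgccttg
CDH2: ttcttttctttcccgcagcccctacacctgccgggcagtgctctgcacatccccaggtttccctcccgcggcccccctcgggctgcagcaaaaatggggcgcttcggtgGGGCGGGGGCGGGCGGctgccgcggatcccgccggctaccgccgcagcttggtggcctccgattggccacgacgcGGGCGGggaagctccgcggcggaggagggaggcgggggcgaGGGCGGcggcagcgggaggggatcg
CTNNA3: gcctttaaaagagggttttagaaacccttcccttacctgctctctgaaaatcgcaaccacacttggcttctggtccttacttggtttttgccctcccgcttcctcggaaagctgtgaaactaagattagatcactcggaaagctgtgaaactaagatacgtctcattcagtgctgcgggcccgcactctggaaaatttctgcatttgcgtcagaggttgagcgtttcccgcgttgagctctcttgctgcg
Among 250-base windows upstream of 19545 protein-coding genes, the GC box GGGCGG was found in 45.9%, and in 9 of 10 junction genes, all but CTNNA3. CDH2 holds 5 copies, of which some abut or overlap, JUP and GJA1 hold 2 each and PKP2 holds 1. GC content of the junction gene windows ran from 46.0% to 82.8%, where the median of all windows was 57.6%, and windows were not matched for it. The AP-1 motif TGACTCA was found in 1 of 10 junction genes, GJA1, 52 bases before the start, and in 2.9% of all windows. The GATA core GATAA was found in JUP alone of the 10 (19.1% of all windows) and TATAAA in DSC2 alone (9.77%). The TEAD motif CATTCC (10.3%), the E-box CACGTG (6.39%) and the MEF2 motif (2.55%) were found in 0 of 10. A match describes the letters in a window and is no measure of binding.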

How the data were processed

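Counts per gene were deposited by the authors, who per the labels aligned paired 150 bp reads with STAR (2.7.10a) and counted them with featureCounts (2.16.1) on Ensembl release 113 of the pig genome. Libraries were not strand-specific. The count tables were joined by Ensembl identifier, and 15623 of 35682 identifiers had a symbol. Genes with few reads were removed with filterByExpr, libraries were scaled by TMM, and zones were compared with edgeR's quasi-likelihood test (edgeR 4.0.16, R 4.3.3) with no covariate and a threshold of 0.05 on the Benjamini-Hochberg adjusted p. CPM are TMM-scaled, and log2 CPM use a prior count of 2. Both zones came from the same 6 animals, so the animal number pairs the libraries, and a fit with the animal as a block was an alternative. Deviations from the zone means correlated within animals by -0.03 to 0.57 (over 0.1 in 4 of 6). Alternatives were DESeq2 (1.42.0), its size factors, library totals, other filters, and libraries left out. The scripts were tested on simulated data. Named genes were the 10 junction genes, the 2 most abundant tested genes of each related list, and the 3 genes most like GJA1, DSP and CDH2. Members and lists were chosen with earlier results of these data known. Libraries of 1 zone come from separate animals. Upstream sequence was read from RefSeq's Sscrofa11.1 by symbol, which matched 10 of 10 genes. Some genes of the related lists and neighbouring genes are not reported here.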

Additional observations from a re-analysis of the deposited data

Results flagged for a closer look

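In groups of 6 values, a value far from the others was found in 3 of 40 groups examined, and chance flags about 1 in 20. The border minus remote difference of PKP2 in animal 1022 was -2.13 on the log2 CPM scale, where the next lowest animal had -0.22. In the same animal, the mean cardiomyocyte marker level of the border zone was 9.60 log2 CPM, where the next lowest border zone library had 11.55. The border zone library of animal 3622 had counts on 28024 genes, where the next had 20148, at the smallest total of the 12 libraries. The cause of each was not tested.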

How the results depend on the processing

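The 10 junction genes gave 0 calls in the fit reported and in every alternative run, and their lowest adjusted p over these was 0.216 (JUP). The number of animals limits the precision, as the intervals of 0.31 to 0.79 log2 units on either side show. The count of all genes called, 287 as reported, was 41 with the replicate block (40 higher, 1 lower), 1724 with DESeq2 (1415 higher, 309 lower), 1551 with library totals only (1545 higher, 6 lower), 139 with no filter, 149 with at least 10 counts in every library, 79 without animals 1022 and 3622, and 856 with the replicate block and animal 1022 left out (569 higher, 287 lower), an alternative chosen after seeing the data. Leaving out 1 animal gave 0 to 519 calls by edgeR, with 163 without 1022, 519 without 1322, 3 without 1323, 15 without 1922 and 0 without 1623 or without 3622, where 2662 and 2448 genes had an unadjusted p below 0.05. The replicate block changed no call among the junction genes. Over all tested genes the median estimate was 0.04 as reported, 0.32 under library totals and -0.0081 under DESeq2.

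Estimates near 0 changed sign. With library totals they were GJA1 0.16, DSP 0.0154, DSG2 0.0552, NRAP 0.16, PERP 0.0398, DLG1 0.13, ANK3 0.0066, GPD1L 0.0866, MBD5 0.22, ISOC1 0.12, CCDC85A 0.0138, ANK2 0.0708, PGM5 0.13 and LNPK 0.0421, and GJA5 was called at 1.06 (adjusted p = 0.0327). CTNNA3 and GJA4 were -0.0321 and -0.0187 with DESeq2, -0.0224 and -0.0093 with its size factors in edgeR, and -0.0314 and -0.0140 with no filter. MBD5 was 0.0161 with at least 10 counts in every library. Without animals 1022 and 3622, values were GJA1 0.0475, DSG2 0.0079, PKP2 0.0388, GJA4 -0.0160, ANK3 0.0214, GPD1L 0.13, MBD5 0.12, ISOC1 0.0465, CCDC85A 0.0036, ANK2 0.00075, PGM5 0.11 and LNPK 0.0091. With the replicate block and animal 1022 left out, they were DSP 0.0733, DSG2 0.0411, PKP2 0.19, NRAP 0.17, GJA4 -0.0153, DLG1 0.0278, ANK3 0.0839, MBD5 0.0779, ISOC1 0.0879, ANK2 0.13 and PGM5 0.14.

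Leaving out 1 animal at a time, ranges were GJA1 -0.17 to 0.0123, DSP -0.38 to 0.0022, DSG2 -0.29 to 0.0240, PKP2 -0.36 to 0.0891, CTNNA3 -0.16 to 0.21, NRAP -0.29 to 0.11, GJA4 -0.0852 to 0.21, FLNC -0.0598 to 0.31, ANK3 -0.45 to 0.0424, GPD1L -0.50 to 0.0560, CDH5 -0.0068 to 0.29, MBD5 -0.11 to 0.0978, ISOC1 -0.17 to 0.0527, ANK2 -0.32 to 0.0476 and PGM5 -0.21 to 0.11. DSC2, JUP, CDH2 and TJP1 kept their sign throughout. Median within-animal differences without 1 animal were -0.0250 to 0.11 for CTNNA3 and -0.40 to 0.0645 for NRAP. The cause of these changes was not tested. Over all 6 animals, medians relative to the cardiomyocyte markers were 0.39 for GJA1, 0.63 for DSP and 0.69 for JUP. They were 0.80 for CTNNA3, 0.76 for TJP1 and 0.63 for NRAP. The values given for gene lists, ratios and marker-relative differences under other fits or without animals were chosen after seeing the data.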

Other observations

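Among junction genes of other tissues, DSC3, a desmocollin of stratified epithelia, had 242 counts in the border zone of animal 1022, where no other library was above 0.917 CPM and 5 libraries had 0 counts. It was not tested for lack of reads, and it was chosen after its values were seen. CDH11, a cadherin of mesenchymal cells, ranged from 4.82 to 119 CPM in the border zone (median 15.9) and had a log2 fold change of 2.45 (SE 0.64, adjusted p = 0.0581, edgeR). The estimate was 1.56 (adjusted p = 0.125) with the animal as a block and 1.12 (adjusted p = 0.108, edgeR) without animal 1022, whose border zone library holds the highest value. CDH11 was called by DESeq2 (adjusted p = 0.0023) and with library totals (adjusted p = 0.0275). CDH1 (1.76) and CDH3 (1.25), both epithelial cadherins, had an unadjusted p below 0.05 and did not pass the adjusted threshold, except CDH3 with library totals (adjusted p = 0.0461, edgeR). Without animals 1022 and 3622 they were at 1.19 and 0.62. MAGI1, which encodes a scaffold protein of the disc, had an estimate of 0.53 with an unadjusted p below 0.05 that did not pass the adjusted threshold, and 0.25 without both animals. These genes were chosen after their values were seen.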
